A study of Mus musculus with 135 samples.

Results

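Messenger RNA of 8 genes of the red cell lineage, Bpgm, Slc25a37, Bnip3l, Tal1, Gata1, Klf1, Trim58 and Trim10, was measured in the cortex and hippocampus of sickle (SS) and control (AA) mice. The rows were taken by symbol: each of the 8 genes had exactly 1 row among the 55416 genes listed for each tissue, and all 8 were found in both count tables. All mice were male Townes mice of about 6 months, in which human globin genes replace the mouse ones in every group. SS mice carry the sickle form of human beta-globin and AA mice the normal adult form. Mice of each genotype were left unperturbed (AA or SS alone), were exposed to repeated social defeat by an aggressor mouse in the home cage (+ RSD), received the antibiotic minocycline in the drinking water (+ minocycline), or received minocycline before and during the defeat sessions (+ RSD + minocycline). Of AA mice, the cortex gave 12 libraries from unperturbed, 3 from RSD, 1 from minocycline and 18 from RSD + minocycline mice. Of SS mice it gave 8, 6, 4 and 14 in the same order. The hippocampus gave 11 AA and 7 SS libraries from unperturbed mice and otherwise the same numbers. Each mouse gave at most 1 library per tissue. On GRCm39, Trim10 (ENSMUSG00000073400.7) lies at chr17:37180406-37188725, Bpgm (ENSMUSG00000038871.6) at chr6:34453142-34484029, Slc25a37 at chr14:69479297-69522561, Bnip3l at chr14:67222678-67246356, Tal1 at chr4:114913623-114928952, Gata1 at chrX:7825499-7844310, Klf1 at chr8:85628557-85631934 and Trim58 at chr11:58531221-58546435. Values below are counts of bulk tissue scaled to 1000000 reads on genes (CPM).

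Erythroblasts are built by a small set of transcription factors. Tal1 and Gata1 bind DNA in shared complexes and switch on the erythroid programme, and Klf1 activates globin and many other red cell genes. Tal1 is also made by endothelial cells. Late erythroblasts then lose their nucleus and become reticulocytes, which still carry messenger RNA when they enter the blood. Trim58 and Trim10 are ubiquitin ligases of the TRIM family made late in red cell formation; Trim58 takes part in the loss of the nucleus. Slc25a37 (mitoferrin) brings iron into mitochondria for heme, Bnip3l (Nix) is the receptor through which reticulocytes clear their mitochondria, and Bpgm makes 2,3-bisphosphoglycerate, the small molecule by which red cells lower the oxygen affinity of hemoglobin. Brain cells also use some of these genes: Bnip3l acts in mitochondrial turnover in many tissues. Alas2, the erythroid form of the first enzyme of heme synthesis, served as the reference gene. In bulk tissue, fewer cells of a type and less RNA per cell cannot be told apart, and whether the mice taken for RNA were perfused is not given in the sources used here.

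Promoter windows of Trim10, Bpgm and Alas2 are shown because these genes varied together from mouse to mouse, as described below. Each runs 5′ to 3′ from 250 bases before to 50 bases after the annotated start in RefSeq (GRCm38.p6, plus strand): chr17:36869324-36869623 for Trim10, chr6:34476106-34476405 for Bpgm and chrX:150547167-150547466 for Alas2. Capitals mark matches to the letters bound by GATA factors (AGATAA with its variants TGATAA and AGATAG and also TGATAG, either strand) and to the CCNCNCCC letters bound by Klf factors (either strand).
Trim10: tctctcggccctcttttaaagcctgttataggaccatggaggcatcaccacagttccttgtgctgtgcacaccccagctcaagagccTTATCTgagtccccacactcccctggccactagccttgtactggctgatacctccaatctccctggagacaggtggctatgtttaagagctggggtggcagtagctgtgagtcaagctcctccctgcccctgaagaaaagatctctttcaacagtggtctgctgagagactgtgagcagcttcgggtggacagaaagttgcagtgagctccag
Bpgm: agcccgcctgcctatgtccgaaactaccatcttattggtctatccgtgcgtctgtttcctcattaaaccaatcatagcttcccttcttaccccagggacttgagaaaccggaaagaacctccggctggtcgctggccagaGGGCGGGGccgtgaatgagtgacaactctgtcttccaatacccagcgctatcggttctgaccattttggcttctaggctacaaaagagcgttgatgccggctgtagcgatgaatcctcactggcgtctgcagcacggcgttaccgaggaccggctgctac
Alas2: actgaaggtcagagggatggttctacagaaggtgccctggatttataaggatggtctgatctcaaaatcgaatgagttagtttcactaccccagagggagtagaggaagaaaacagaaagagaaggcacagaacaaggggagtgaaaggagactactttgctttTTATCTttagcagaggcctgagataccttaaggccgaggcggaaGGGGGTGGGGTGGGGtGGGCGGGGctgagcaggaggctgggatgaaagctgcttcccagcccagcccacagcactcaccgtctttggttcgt
The Trim10 window held 1 GATA match, at position -163 from the start, and no CCNCNCCC match. The Bpgm window held 1 CCNCNCCC match at position -110 and no GATA match. The Alas2 window held a GATA match at position -86 and 4 CCNCNCCC matches between positions -42 and -26, of which the first 3 overlap. Windows of 6 of the 8 genes were in the RefSeq table; GATA letters were also found for Klf1, Trim58 and 1 of the 2 Tal1 windows, and CCNCNCCC letters for Gata1 and the other Tal1 window. Of all 32851 promoter windows in the table, 29.8% held a GATA match and 49.5% a CCNCNCCC match, so these letters are common. A match is a description of the letters and was not tested as a binding site.

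Depth was 16295042 to 107713193 reads on genes in the cortex (median 33447552) and 12869149 to 68731008 in the hippocampus (median 34199033). Neuron markers (6 of 6) were detected in every group of both tissues. Libraries of 3 mice had Alas2 levels that went against their genotype label. The AA library labelled 5844 had 95.9 CPM of Alas2 in cortex and 55.5 in hippocampus, and the AA + RSD + minocycline library labelled 5853 had 51.9 and 46.2 CPM, against medians of 4.94 and 3.77 CPM over all AA libraries. The SS + RSD + minocycline library labelled 7078 had 6.47 and 3.47 CPM, against medians of 96.8 and 79.5 CPM over all SS libraries. Since Alas2 is itself erythroid and the tables hold no marker of genotype, the main values keep these libraries under their labels and each genotype result is also given without them. The library pair labelled 9674 (AA + RSD) read as if its tissues were exchanged: Prox1, a gene of dentate gyrus neurons, stood at 87.6 CPM in its cortex library (6.68 to 23.8 in the other 65) and at 16.04 in its hippocampus library (45.3 to 175 in the other 63). The library labelled 9631 held 37.03 CPM of the mouse beta-globin gene Hbb-bs in cortex and 31.3 in hippocampus, where no other library passed 0.224 and 0.233 CPM. Libraries also fall into those numbered up to 37 and those numbered from 39 in the labels. The share of reads outside genes had medians of 9.75% and 5.01% in these blocks in cortex and 9.32% and 4.68% in hippocampus, and all RSD mice without minocycline were in the later block.

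The 8 genes spanned a wide range of levels. Per kilobase of exon, so that genes can be compared, the median over the 12 unperturbed AA cortex libraries was 22.7 CPM per kb for Bnip3l, 9.10 for Bpgm, 6.35 for Slc25a37, 0.268 for Tal1, 0.10 for Klf1, 0.0181 for Trim10, 0.00475 for Trim58 and 0 for Gata1. The order over the 8 unperturbed SS cortex libraries was 22.02 for Bnip3l, 15.6 for Bpgm, 8.56 for Slc25a37, 0.867 for Trim10, 0.419 for Tal1, 0.104 for Klf1, 0.0255 for Trim58 and 0.0211 for Gata1. Trim10 thus stood below Klf1 in AA and above Tal1 in SS, the only change of order between these groups. Ranges over AA libraries overlapped between the neighbours Bpgm and Slc25a37 and between each pair of neighbours from Klf1 downward, but not between the other neighbours. Over SS libraries the neighbours that overlapped were Bnip3l and Bpgm, Trim10 and Tal1, Klf1 and Trim58, and Trim58 and Gata1. The reference gene Alas2 had 1.60 CPM per kb in AA and 38.2 in SS cortex. In hippocampus the medians were 20.98 and 20.9 CPM per kb for Bnip3l in unperturbed AA and SS libraries, 8.32 and 13.4 for Bpgm, 4.51 and 4.96 for Slc25a37, 0.334 and 0.458 for Tal1, 0.0362 and 0.699 for Trim10, and at most 0.120 for the other genes.

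Trim10 was the only one of the 8 genes called higher in SS in all 6 genotype comparisons. In cortex it ran from 0 to 1.78 CPM in AA mice (median 0.0441) and from 0.726 to 4.19 CPM in SS mice (median 2.11). In AA + RSD + minocycline mice it ran from 0 to 0.848 CPM (median 0.0525), and in SS + RSD + minocycline mice from 0.176 to 3.57 CPM (median 1.46). The highest AA value was the library labelled 5844, the highest AA + RSD + minocycline value was that labelled 5853, and the lowest SS + RSD + minocycline value was that labelled 7078. The 3 AA + RSD mice had 0.0309, 0.0910 and 0.160 CPM, which rest on 1, 2 and 5 reads, against 1.98 to 3.20 CPM in the 6 SS + RSD mice (median 2.66). These groups did not overlap, as for 1.23% of all genes compared there with SS + RSD higher. The 4 SS + minocycline mice had 1.20, 1.42, 3.59 and 4.17 CPM, all above every AA library but 5844. The single AA + minocycline mouse had 0.430 CPM and entered no comparison. With all libraries, the unperturbed pair and the pair under RSD with minocycline overlapped for all 8 genes (0.0131% and 0.00436% of all genes did not, SS higher). Without the 3 libraries Trim10 did not overlap in either pair, as for 0.157% and 0.096% of all genes. The 3 libraries were picked by their Alas2 level, which Trim10 and Bpgm follow, so leaving them out removes the overlapping values, and a separation without them is a description and no independent support.

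In hippocampus Trim10 ran from 0 to 1.02 CPM in AA mice (median 0.0881) and from 0.721 to 4.33 CPM in SS mice (median 1.70). It stood at 0.0623, 0.0777 and 0.0792 CPM in AA + RSD mice and at 1.77 to 2.89 CPM in SS + RSD mice (median 2.19). In AA + RSD + minocycline mice it ran from 0 to 0.673 CPM (median 0.0709) and in SS + RSD + minocycline mice from 0.107 to 2.61 CPM (median 1.05). The RSD groups did not overlap (0.9% of genes with SS + RSD higher), and the other genotype pairs did. With all libraries 0.0603% and 0.0% of genes did not overlap in those pairs, and without the 3 libraries 0.164% and 0.0603% did not, Trim10 among them. The SS + minocycline mice had 0.605, 1.58, 4.15 and 4.60 CPM. Over all mice the gene rested on 189 reads in AA and 2397 reads in SS cortex libraries, and on 143 and 2249 reads in hippocampus. Without the 3 libraries the AA range was 0 to 0.503 CPM and the SS range 0.726 to 4.19 CPM in cortex, and 0 to 0.312 and 0.605 to 4.60 CPM in hippocampus.

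**Figure D1:**
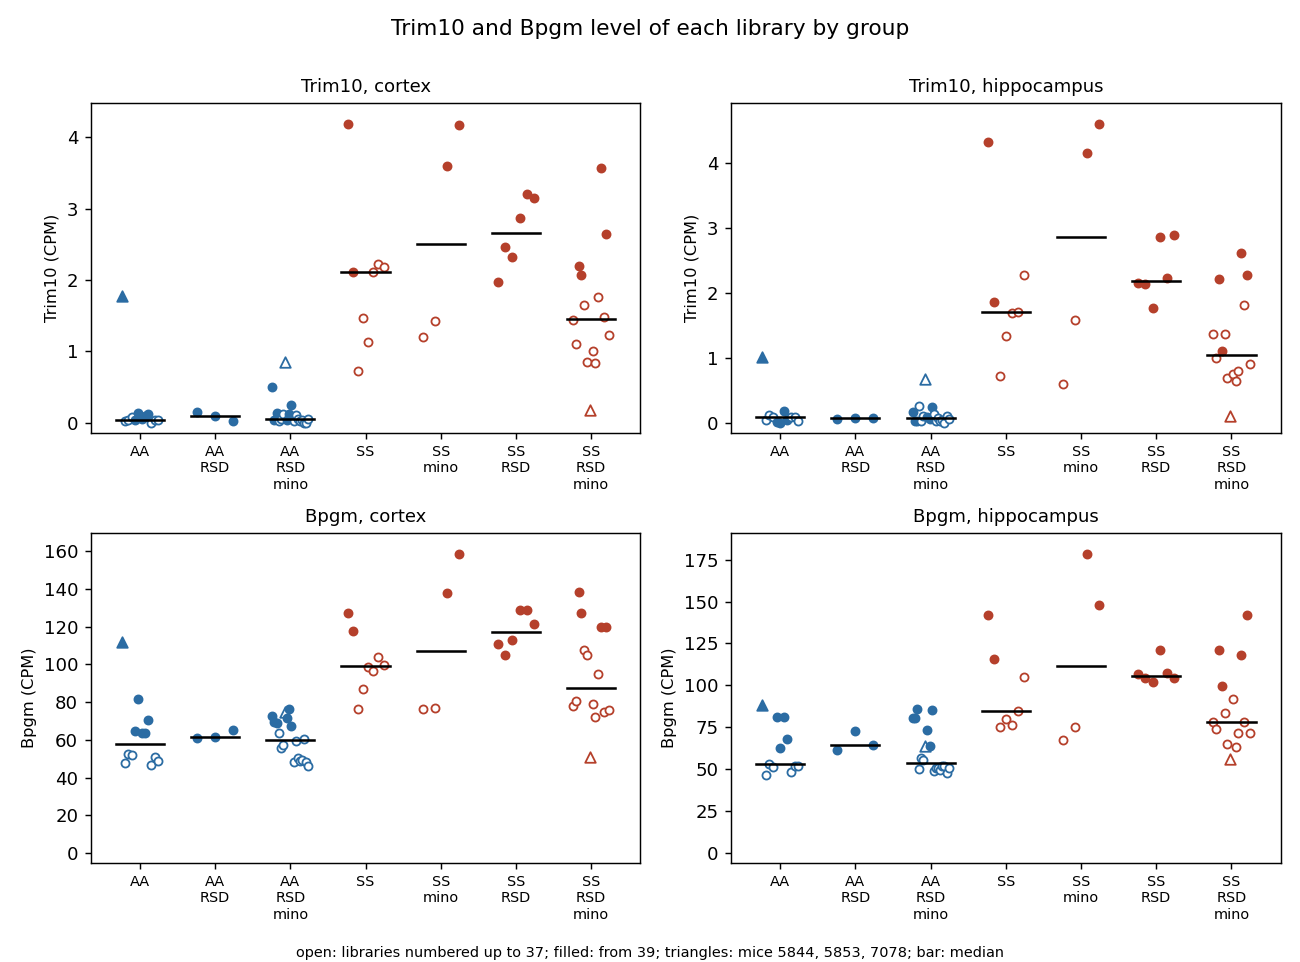
CPM of Trim10 (top) and Bpgm (bottom) in each library of cortex (left) and hippocampus (right), by group ("mino" is minocycline; bars are medians; open points are libraries numbered up to 37 and filled points those from 39; triangles are mice 5844, 5853 and 7078). Apart from the triangles, which were picked by their Alas2 level, Trim10 stood at 0.503 CPM or lower in AA and at 0.605 CPM or higher in SS libraries.

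Trim10 rose in SS in every genotype comparison (edgeR quasi-likelihood test, Benjamini-Hochberg adjustment over all genes tested). In cortex the log2 fold change was 3.23 ± 0.596 (SE; adjusted p = 0.00127; 9.41-fold) in unperturbed mice, 4.78 ± 1.20 (adjusted p = 0.0411; 27.5-fold) under RSD and 3.62 ± 0.50 (adjusted p = 1.34e-06; 12.3-fold) under RSD with minocycline. In hippocampus it was 3.65 ± 0.558 (adjusted p = 6.12e-05; 12.5-fold), 4.99 ± 1.11 (adjusted p = 0.0126; 31.7-fold) and 3.46 ± 0.437 (adjusted p = 2.91e-07; 10.96-fold). In edgeR fits without the 3 libraries, the unperturbed difference was 4.95 in cortex (adjusted p = 2.04e-11) and 4.72 in hippocampus (adjusted p = 7.26e-11), and that under RSD with minocycline was 4.23 (adjusted p = 1.90e-13) and 3.89 (adjusted p = 1.09e-12). Because the 3 were picked by Alas2, which Trim10 follows, the smaller adjusted p follows from that choice and is no independent support. Such fits are also among the alternatives counted next. The unperturbed call held in 11 of 13 alternatives in cortex (not within mouse number series B or from library number 39) and in 10 of 13 in hippocampus (not within series A, series B or from 39). The RSD difference rested on the 3 AA + RSD mice: leaving out each in turn gave 4.33 to 5.46 in cortex with adjusted p from 0.0899 to 1, and 4.83 to 5.11 in hippocampus with adjusted p from 0.0232 to 0.511, the highest in each tissue being without the library labelled 9674. The difference did not differ detectably between conditions by the interaction term. The RSD difference minus the unperturbed one was 1.55 (95% interval -0.92 to 4.01) in cortex and 1.34 (-1.01 to 3.69) in hippocampus on the log2 scale.

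Bpgm also stood higher in SS mice, over a level that was already well above 0 in AA mice. In cortex it ran from 46.7 to 112 CPM in AA mice (median 57.8) and from 76.4 to 127 CPM in SS mice (median 99.3). The 3 AA + RSD mice had 61.02, 61.6 and 65.1 CPM and the 6 SS + RSD mice 105 to 129 CPM (median 117). Unperturbed groups overlapped through the library labelled 5844 (112 CPM) and 1 other AA library. The RSD groups did not overlap, as for 1.23% of all genes with SS + RSD higher. AA + RSD + minocycline mice had 46.3 to 76.1 CPM (median 60.1) and SS + RSD + minocycline mice 51.01 to 138 CPM (median 87.6). SS + minocycline mice had 76.5, 76.7, 138 and 159 CPM. In the last of these groups the 2 low libraries were numbered up to 37 and the 2 high ones from 39.

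In hippocampus Bpgm ran from 46.5 to 88.1 CPM in AA mice (median 52.9) and from 75.4 to 142 CPM in SS mice (median 84.8). It stood at 61.2, 64.7 and 73.0 CPM in AA + RSD and at 102 to 121 CPM in SS + RSD mice (median 106). Again these groups did not overlap, as for 0.9% of all genes with SS + RSD higher. AA + RSD + minocycline mice had 47.9 to 85.7 CPM (median 53.8) and SS + RSD + minocycline mice 56.2 to 142 CPM (median 78.3), which overlapped. SS + minocycline mice had 67.5, 75.2, 148 and 178 CPM.

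By the edgeR test Bpgm rose in SS cortex by 0.65 ± 0.154 on the log2 scale (adjusted p = 0.0416; 1.57-fold) in unperturbed mice and by 0.62 ± 0.121 (adjusted p = 0.00196; 1.53-fold) under RSD with minocycline. The unperturbed call held in 8 of 13 alternatives. It was lost with no filter on low counts, without the library labelled 9631, with only the groups compared in the model, within mouse number series B and from library number 39. Its cortex value under RSD was 0.91 ± 0.252 (edgeR adjusted p = 0.0959). In hippocampus it rose under RSD with minocycline (0.50 ± 0.141, edgeR adjusted p = 0.0333, 1.42-fold), and its values in unperturbed and RSD mice were 0.62 ± 0.190 (adjusted p = 0.438) and 0.73 ± 0.291 (adjusted p = 0.317). The hippocampus call held in 6 of 11 alternatives and was lost with DESeq2 (adjusted p = 0.0602), with no filter, with only the groups compared, within series B and from 39. The level also differed between the blocks of library numbers: 18 of the 37 cortex libraries up to 37 stood below all 29 from 39, AA libraries included. The medians over AA and SS cortex libraries together were 63.4 CPM up to 37 and 105 CPM from 39. Such pooled medians fall near the gap between the genotypes, so their distance mixes genotype and block and does not measure the block shift. With the block as a term, chosen after the data were seen, edgeR called Bpgm in all 3 comparisons of both tissues, with 0.83 (adjusted p = 1.89e-08), 0.91 (1.89e-04) and 0.62 (1.25e-08) in cortex and 0.75 (7.91e-09), 0.73 (7.52e-04) and 0.52 (1.98e-08) in hippocampus for unperturbed, RSD and RSD with minocycline. The share of all genes called in these genotype fits is not given here, so the calls stand without that background. Within the blocks, the unperturbed difference in cortex was 0.89 (edgeR adjusted p = 2.68e-06) up to 37 and 0.67 (adjusted p = 0.635) from 39, and that of Trim10 was 5.23 (adjusted p = 1.25e-05) and 3.03 (adjusted p = 0.726); only 2 SS mice were numbered from 39. In hippocampus the Bpgm values were 0.72 (edgeR adjusted p = 8.21e-04) and 0.71 (adjusted p = 0.459), and the Trim10 values 4.33 (adjusted p = 1.32e-04) and 3.59 (adjusted p = 0.667). Under RSD with minocycline, Trim10 passed within both blocks of both tissues, at 3.48 (edgeR adjusted p = 0.00188) and 3.98 (0.0164) in cortex and 2.92 (0.00273) and 4.37 (6.27e-04) in hippocampus. Interaction terms of Bpgm were 0.26 (95% interval -0.30 to 0.83) in cortex and 0.11 (-0.56 to 0.78) in hippocampus for RSD.

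With all libraries kept, every SS library stood above every AA library for Trim10 from 39 in cortex (0.0131% of all genes did so) and for both genes from 39 in hippocampus (0.0474%). Up to 37 no gene did so in either tissue (0.0%). Without the 3 libraries, a choice made on Alas2, both genes did so in each block and tissue. The share of all genes was then 0.0567% up to 37 (17 SS and 18 AA libraries) and 0.0872% from 39 (14 and 14) in cortex, and 0.0603% (16 and 18) and 0.0862% (14 and 13) in hippocampus.

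**Figure D2:**
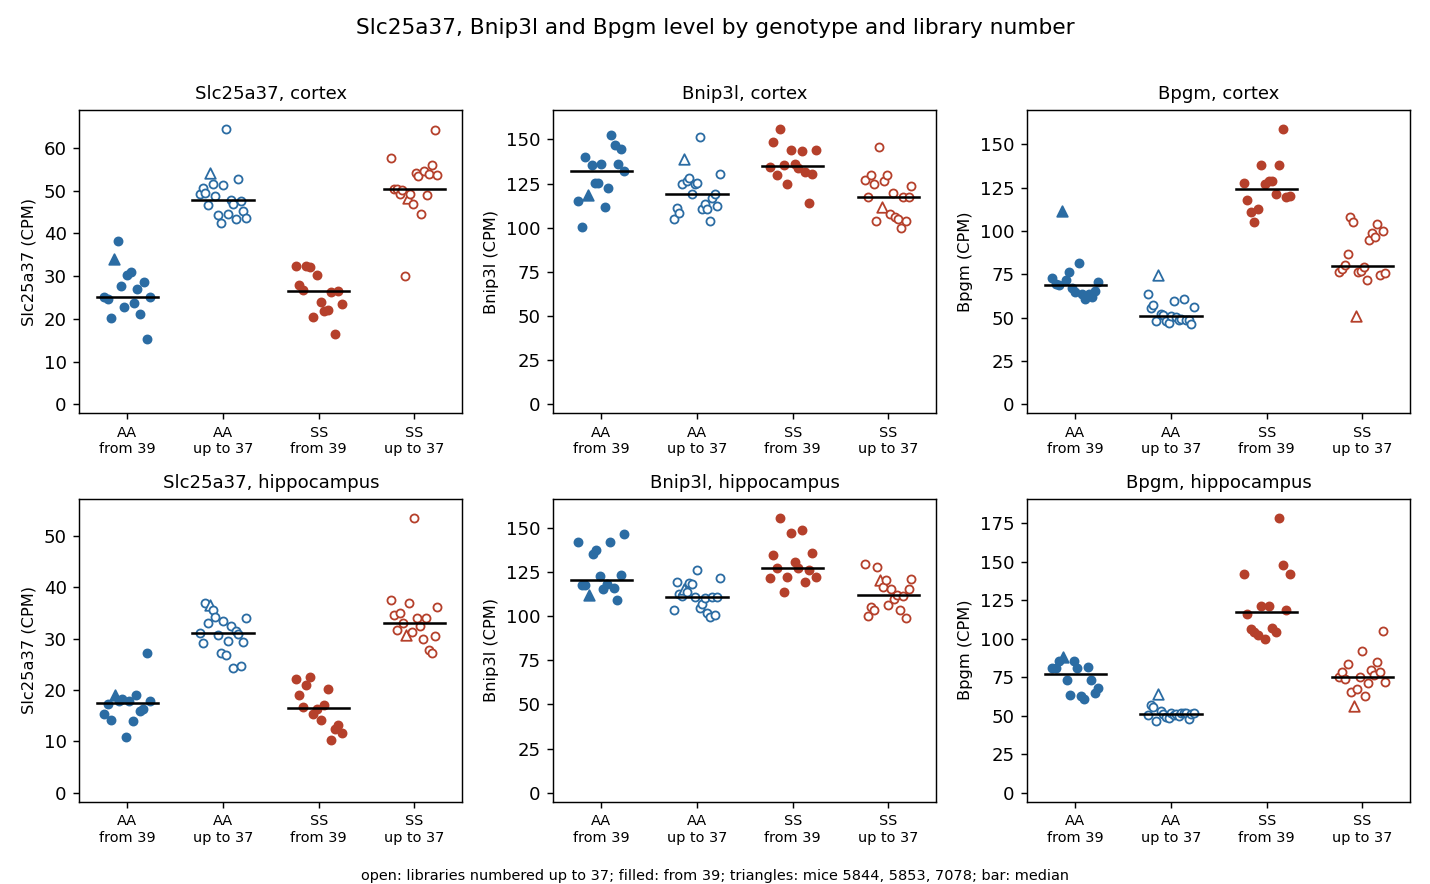
CPM of Slc25a37, Bnip3l and Bpgm in each library by genotype and block of library number (cortex above, hippocampus below; bars are medians; triangles are mice 5844, 5853 and 7078). Slc25a37 separates by block with little difference between genotypes, and Bpgm differs by both.

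Slc25a37 differed by library number and not detectably by genotype. In cortex its median was 49.3 CPM in the 37 libraries numbered up to 37 and 26.2 CPM in the 29 from 39, and 36 of the 37 stood above every later library. In hippocampus the medians were 32 and 16.8 CPM, with 33 of 36 above every later library. By group, cortex levels were 21.1 to 52.7 CPM in AA (median 38.3), 15.2, 27.02 and 28.6 in AA + RSD, 20.1 to 64.3 in AA + RSD + minocycline (median 44.9), 27.99 to 64.3 in SS (median 51.5), 21.8 to 32.3 in SS + RSD (median 25.4) and 20.6 to 55.95 in SS + RSD + minocycline (median 49.3). The SS + minocycline mice had 16.4, 26.2, 46.9 and 49.3 CPM. In hippocampus it ran from 14.1 to 35.6 CPM in AA (median 27.2) and from 19.03 to 37.5 CPM in SS (median 29.8), from 14.1 to 22.5 CPM in SS + RSD (median 18.6), and stood at 16.4, 19.1 and 27.1 CPM in AA + RSD mice. The RSD groups, whose mice all had numbers from 39, were thus the low ones in both genotypes, apart from 1 AA + RSD hippocampus library at 27.1 CPM. That library and the AA + RSD cortex library at 15.2 CPM are those labelled 9674, whose tissues read as exchanged. The genotype differences in cortex were 0.33 (edgeR adjusted p = 0.767) in unperturbed mice, 0.17 under RSD and 0.01 under RSD with minocycline on the log2 scale, none past the threshold. Genes for lncRNAs on the other strand overlap 29.9% of its exonic bases, and the strand setting of the counting is not given in the sources used here, so reads of those genes cannot be told apart from its own.

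Bnip3l had nearly the same level in both genotypes. In cortex it ran from 112 to 147 CPM in AA mice (median 125) and from 99.6 to 149 CPM in SS mice (median 121), groups that overlapped, with 3 of the 8 SS libraries outside the AA range (1 above it and 2 below). AA + RSD mice had 136, 145 and 153 CPM and SS + RSD mice 130 to 156 CPM (median 136). Under RSD with minocycline the ranges were 100 to 151 CPM in AA (median 114) and 104 to 146 CPM in SS (median 122), and SS + minocycline mice had 114, 127, 130 and 132 CPM. Hippocampus medians were 116 CPM in AA, 115 in SS, 129 in SS + RSD, 114 in AA + RSD + minocycline and 118 in SS + RSD + minocycline mice. The genotype differences in cortex were -0.08, -0.06 and 0.01 on the log2 scale in unperturbed, RSD and RSD with minocycline mice, and none passed the test.

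Tal1, the transcription factor shared with endothelium, leaned higher in SS mice. In cortex it ran from 0.999 to 2.03 CPM in AA (median 1.37) and from 1.41 to 2.74 CPM in SS (median 2.14). AA + RSD mice had 0.896, 1.08 and 1.59 CPM against 1.44 to 2.48 CPM in SS + RSD (median 1.70), and under RSD with minocycline the ranges were 0.898 to 4.59 CPM in AA (median 1.48) and 1.15 to 4.78 CPM in SS (median 1.96). All of these pairs overlapped. In hippocampus it ran from 1.13 to 2.38 CPM in AA (median 1.71) and from 2.08 to 2.80 CPM in SS (median 2.35), and under RSD with minocycline from 1.22 to 2.64 CPM in AA (median 1.82) and from 1.36 to 2.27 CPM in SS (median 1.83). Its log2 differences were 0.53 (edgeR adjusted p = 0.711), 0.60 (1) and 0.44 (0.379) in cortex, and 0.47 ± 0.124 (0.140), 0.38 (0.555) and 0.03 (0.990) in hippocampus, and none passed. In edgeR without the 3 libraries the unperturbed hippocampus value was 0.51 (adjusted p = 0.0496), and with DESeq2 it was 0.44 (adjusted p = 0.0480). The summed level of 10 endothelial markers, all detected in every group, was also higher in unperturbed SS mice: 229 to 321 CPM in AA hippocampus (median 253) and 314 to 442 CPM in SS hippocampus (median 332), and 233 to 382 (median 271) and 348 to 395 (median 365) in cortex. Under RSD with minocycline in hippocampus the medians of this sum were 254 CPM in AA and 312 CPM in SS, where those of Tal1 were 1.82 and 1.83 CPM. The part of these cells in the Tal1 level was not tested.

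Gata1, the master factor of erythroblasts, was at the limit of detection. Over the 34 AA cortex libraries it had 10 reads, with 27 libraries at 0, and over the 32 SS cortex libraries 52 reads, with 14 at 0. Of these SS reads, 13 came from the SS + minocycline library labelled 9888. In hippocampus it had 3 reads in 33 AA libraries (30 at 0) and 50 reads in 31 SS libraries (8 at 0). Most AA libraries thus held no read, while most SS libraries held 1 or a few. All 3 AA + RSD libraries were at 0 in both tissues, where the 6 SS + RSD libraries had 11 reads in cortex and 12 in hippocampus. The limit that a count of 0 allows was set at 3 reads over the AA + RSD group. The pooled Gata1 level of SS + RSD stood at 1.27 times that limit in cortex and 1.36 times in hippocampus. This limit covers counting error in AA + RSD alone. The 11 and 12 SS + RSD reads were taken as exact and the spread between mice was left out, so a higher SS + RSD level is not established by it. It passed the count filter in cortex alone, where its unperturbed difference was 2.54 on the log2 scale (edgeR adjusted p = 0.638).

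Trim58, the ligase of late erythroblasts, was nearly as sparse. It had 42 reads in AA cortex (16 of 34 libraries at 0, median 0.0182 CPM) and 159 reads in SS cortex (4 of 32 at 0, median 0.132 CPM). In hippocampus the reads were 84 in AA (5 at 0, median 0.0636 CPM) and 163 in SS (0 at 0, median 0.102 CPM). SS libraries were higher on the median in both tissues, and the ranges overlapped. The 3 AA + RSD cortex libraries had 0 reads against 32 in SS + RSD. The pooled SS + RSD level stood at 3.69 times the same limit, again with the SS + RSD reads taken as exact and the spread between mice left out. Its log2 differences in cortex were 1.80 (edgeR adjusted p = 0.643) in unperturbed mice and 1.52 (adjusted p = 0.288) under RSD with minocycline, the latter 1.94 (adjusted p = 0.0586) without the 3 libraries, and none passed.

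Klf1, the activator of globin genes, had similar total reads in the genotypes: 183 in AA and 195 in SS cortex (medians 0.153 and 0.164 CPM), and 172 and 215 in hippocampus (medians 0.143 and 0.158 CPM). The libraries at 0 numbered 5 in AA and 0 in SS cortex, and 3 and 2 in hippocampus. Under RSD in hippocampus it had 5 reads in the 3 AA libraries and 33 in the 6 SS libraries, of which 4 stood above every AA library, and the log2 difference was 1.38 (edgeR adjusted p = 0.720). The ranges overlapped in each genotype pair, and its cortex differences of 0.20 (edgeR adjusted p = 0.966), -0.01 and 0.37 (adjusted p = 0.898) on the log2 scale did not pass. Gcdh, a gene on the other strand, covers 52.7% of the exonic bases of Klf1, so the Klf1 reads are uncertain without the strand setting. Genes on the other strand also overlap 13.85% of the exonic bases of Alas2, 13.29% of those of Gata1 and 4.88% of those of Tal1. The same uncertainty holds for reads in those stretches.

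**Figure D3:**
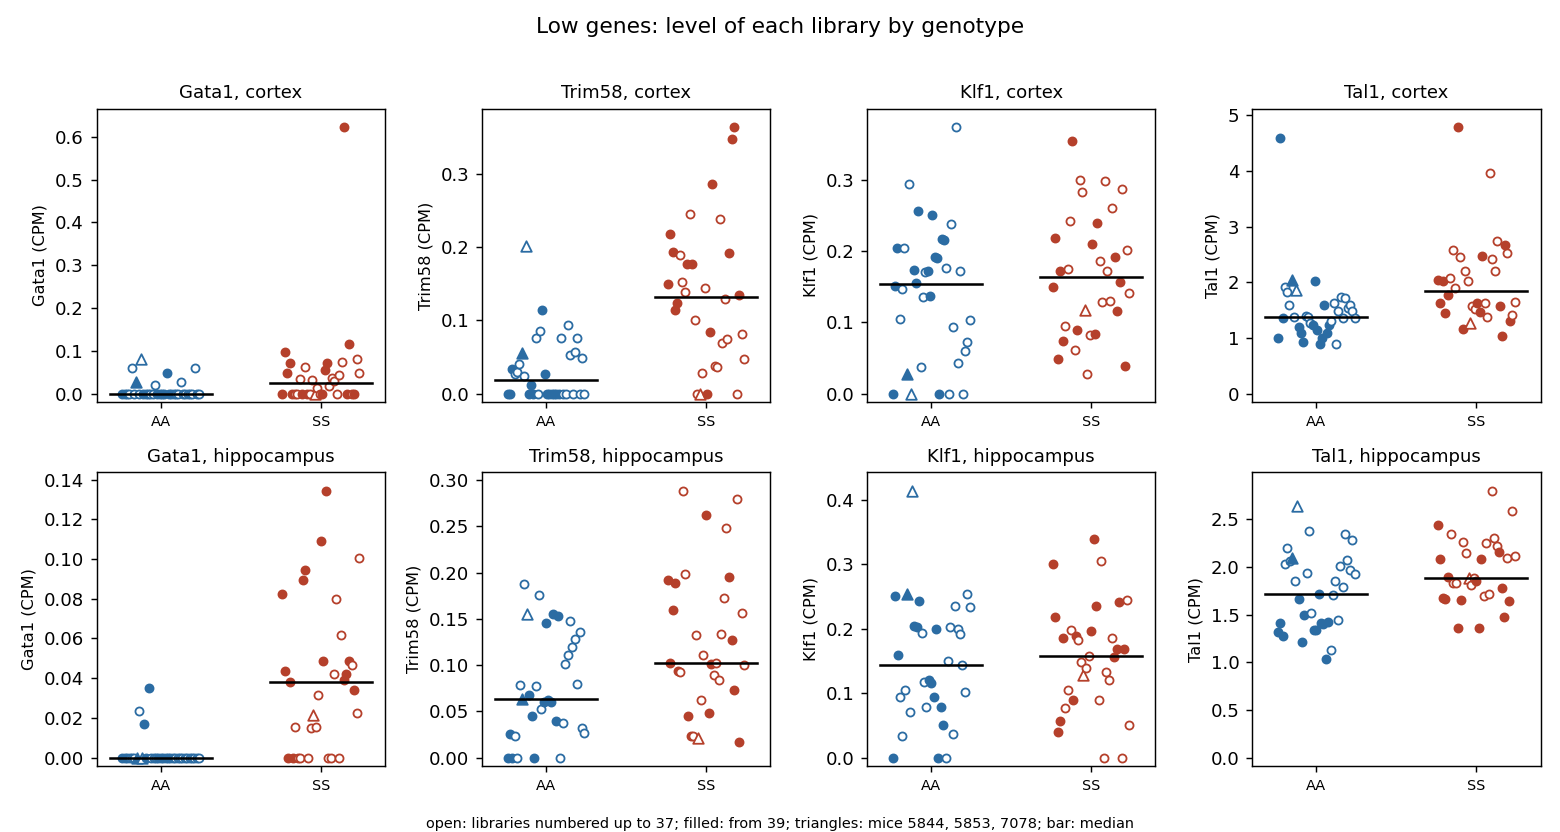
CPM of Gata1, Trim58, Klf1 and Tal1 in each library by genotype (cortex above, hippocampus below; bars are medians; open points are libraries numbered up to 37 and filled points those from 39; triangles are mice 5844, 5853 and 7078). Most AA libraries stand at 0 for Gata1, and the genotypes overlap for all 4 genes.

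Over the genes tested, 2 of 8 were called higher in SS cortex in unperturbed mice, where 0.214% of all genes were called in either direction (0.209% higher). Under RSD it was 1 of 8 (0.493% of all genes, 0.096% higher; leaving out the library labelled 9674 took the edgeR calls to 0, and 670 genes then had an unadjusted p under 0.05) and under RSD with minocycline 2 of 8 (0.624%, 0.606% higher). In hippocampus 7 of the 8 were tested, and 1, 1 and 2 of them were called higher, against 0.159% (0.155% higher), 0.78% (0.138% higher) and 2.74% (2.62% higher) of all genes. Without the library labelled 9674, 4 of 23372 genes were called under RSD in hippocampus and none was a member. The median log2 difference of the members was 0.59, 0.76 and 0.53 in cortex and 0.47, 0.73 and 0.18 in hippocampus, against -0.00, 0.01 and 0.01 and 0.01, 0 and -0.01 over all genes tested. None of the 8 was lower in SS by the test. Each interaction of genotype with condition called 0 members, against 0.236% and 0.0% of genes in cortex for RSD and RSD with minocycline and 0.0474% and 0.0% in hippocampus. At an unadjusted p under 0.05 the interaction with RSD held 676 genes of all genes tested in cortex and 1545 in hippocampus, and that with RSD + minocycline 652 and 1000.

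**Figure D4:**
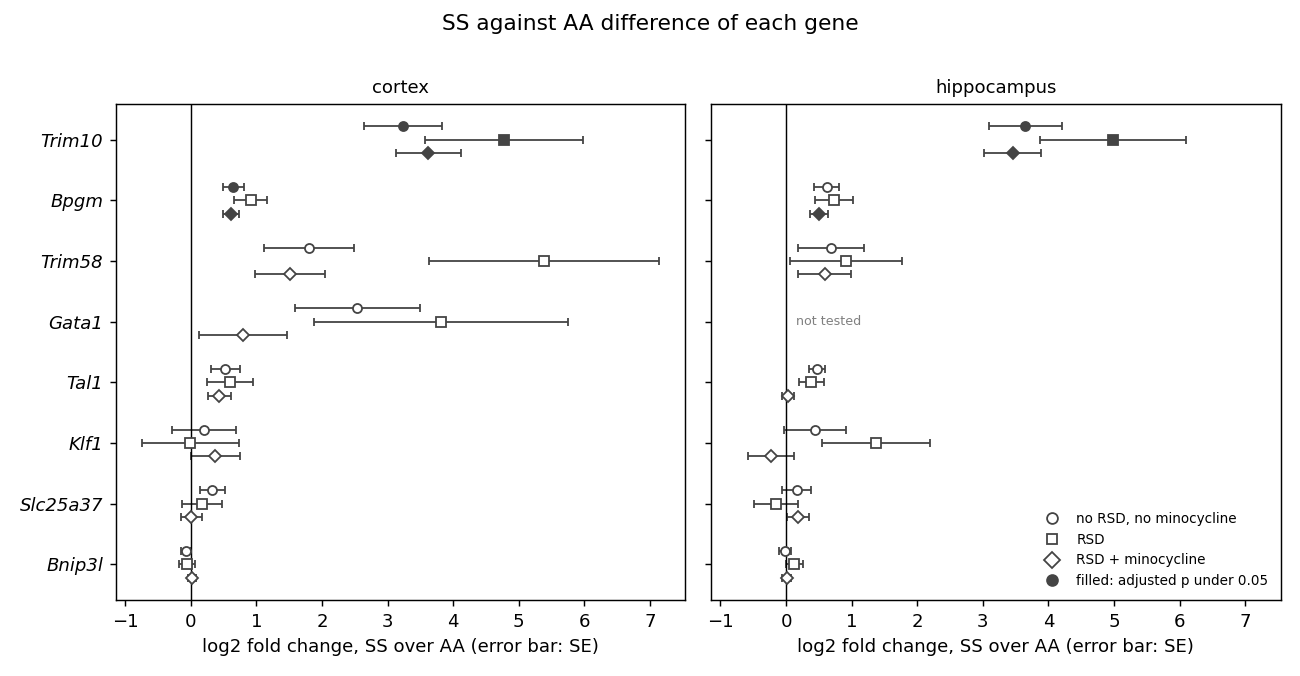
Log2 fold change of SS over AA (x axis; error bars are SE of the edgeR fit) for each of the 8 genes in unperturbed, RSD and RSD + minocycline mice; filled symbols passed an adjusted p of 0.05. Trim10 is filled in all 6 comparisons and Bpgm in 3; the fitted RSD values of Trim58 and Gata1 in cortex stand against an AA + RSD group at 0 reads and depend on the prior count.

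Within a genotype the stress and drug comparisons gave few calls among the 8 genes. SS + RSD against SS called 0 of the 5 tested in cortex (2.57% of all genes were called) and 0 of the 7 in hippocampus (3.11%). Slc25a37 was the furthest in cortex, at -0.74 ± 0.230 on the log2 scale (edgeR adjusted p = 0.0635), followed by Bnip3l at 0.31 (adjusted p = 0.0783). With the block of library numbers as a term these values were -0.05 (edgeR adjusted p = 1) and 0.11. Trim10 stood at 0.51 (edgeR adjusted p = 0.409) in cortex and 0.32 (adjusted p = 0.731) in hippocampus, and at -0.38 in cortex with the block term. SS + RSD + minocycline against SS + RSD called 1 of 5 in cortex (8.85% of all genes) and 0 of 7 in hippocampus (5.96%). The call was Bnip3l, which fell by 0.30 on the log2 scale (edgeR, SE 0.0944, adjusted p = 0.0422), and with the block as a term it stood at -0.11 (adjusted p = 0.703). Trim10 stood at -0.86 (edgeR adjusted p = 0.121) in cortex and -0.91 (adjusted p = 0.155) in hippocampus, and with the block term at -0.08 in cortex. SS + RSD mice were all numbered from 39 and only 4 of the 14 SS + RSD + minocycline mice were, so these comparisons and the block are largely confounded.

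Minocycline alone called 0 members in SS mice of either tissue (0.0% of genes by edgeR; 1406 genes in cortex and 449 in hippocampus at an unadjusted p under 0.05), with Tal1 at -0.48 (edgeR adjusted p = 0.776), Slc25a37 at -0.41, Trim10 at 0.43 and Bpgm at 0.24 in cortex. Among AA mice, RSD called 0 of 6 in cortex (0.853% of all genes) and in hippocampus (1.19%), and adding minocycline to RSD called 0 of 6 (3.6% and 2.67%). The nearest were Bnip3l at -0.33 (edgeR adjusted p = 0.0524) and Slc25a37 at 0.75 (adjusted p = 0.0878) in cortex for the latter.

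Between tissues, in unperturbed AA mice, Slc25a37 was 1.52-fold higher in cortex than in hippocampus (log2 0.60 ± 0.177, edgeR adjusted p = 0.00832), the only one of the 4 members tested to pass, where 37.1% of all genes did. With the mouse as a replicate block (11 mice with both tissues) it stood at 0.64 (edgeR adjusted p = 4.40e-09), and Tal1 at -0.27 (adjusted p = 0.0379) and Bnip3l at 0.13 (adjusted p = 0.0187) passed as well, in a fit that called 9301 of 17556 genes. Bpgm stood at 0.03 without the block.

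Trim10 and Bpgm tracked Alas2 from mouse to mouse. Correlations are of log2 CPM within a genotype, with p from 100000 permutations adjusted over 32 relations (8 genes, both genotypes, both tissues); both tissues come from the same mice. Over the 32 SS cortex libraries Pearson's r of Trim10 with Alas2 was 0.93 (permutation adjusted p = 6.4e-05) and Spearman's rho 0.94, and r without the 2 libraries farthest from the median of Alas2 was 0.92. Over the 31 SS hippocampus libraries r was 0.93 (permutation adjusted p = 6.4e-05), rho 0.95 and r without the 2 farthest 0.94. Bpgm gave r 0.82 (permutation adjusted p = 6.4e-05), rho 0.85 and 0.85 without the 2 farthest in cortex, and 0.77 (permutation adjusted p = 6.4e-05), 0.94 and 0.91 in hippocampus. The p of 1e-05 before adjustment is the smallest these permutations can give. Within the blocks the Trim10 relation stood at 0.93 (permutation adjusted p = 1.6e-04) up to 37 and 0.78 (0.00848) from 39 in cortex, and at 0.91 (1.6e-04) and 0.93 (3.2e-04) in hippocampus. The Bpgm relation stood at 0.83 (permutation adjusted p = 6.4e-04) and 0.60 (0.113) in cortex and at 0.73 (6.4e-04) and 0.83 (0.00256) in hippocampus.

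Without the library labelled 7078, r of Trim10 with Alas2 was 0.93 in cortex, where 0.00893% of 22387 genes reached that value or more, and 0.94 in hippocampus (0.0132% of 22654 genes). For Bpgm it was 0.87 (0.0268%) and 0.92 (0.0265%). SS libraries held a median of 20.8 reads of Trim10 per 1000 of Alas2 in cortex (11.8 to 35.7) and 22.01 in hippocampus (11.9 to 34.1). AA libraries, with few reads, had medians of 12.4 (0 to 83.3) and 17.2 (0 to 87.3).

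In AA mice the relations of Trim10 and Bpgm were weaker and rested in part on the libraries labelled 5844 and 5853. Trim10 gave r 0.86 (permutation adjusted p = 6.4e-05) and rho 0.67 over 34 cortex libraries and 0.68 without the 2 farthest, and 0.71 (permutation adjusted p = 1.83e-04), rho 0.39 and 0.40 over 33 hippocampus libraries. Bpgm gave 0.70 (permutation adjusted p = 1.07e-04), rho 0.72 and 0.57 in cortex and 0.54 (permutation adjusted p = 0.00349), rho 0.62 and 0.58 in hippocampus. Without those 2 libraries, 0.0313% of all genes in cortex and 15.8% in hippocampus reached the r of Trim10 or more, and 0.192% and 2.47% that of Bpgm. Also without them, Trim58 gave r -0.47 in AA cortex (90.8% of all genes reached that value or more) and -0.46 in hippocampus (87.6%). These are opposite in sign to its SS value in cortex. Slc25a37 gave -0.57 (98.6%) and -0.46 (87.7%), and Bnip3l 0.25 (20.2%) and 0.47 (10.8%). The values of Tal1, Gata1 and Klf1 lay between -0.33 and 0.10. Within blocks and without the 3 libraries, no AA relation passed.

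Slc25a37 ran against Alas2 over all SS libraries, with r -0.51 (permutation adjusted p = 0.00349) and rho -0.63 in cortex and r -0.56 (permutation adjusted p = 0.00136) and rho -0.81 in hippocampus. Without the 2 farthest libraries r was -0.65 and -0.76. Within the blocks no relation passed the threshold: r was 0.10 (permutation adjusted p = 0.688) up to 37 and -0.58 (0.117) from 39 in cortex, and -0.00 (0.991) and -0.53 (0.169) in hippocampus. It was thus near 0 up to 37, and from 39, over 14 libraries in each tissue, about as large as over all libraries. Trim58 gave r 0.47 (permutation adjusted p = 0.0123) and rho 0.37 in SS cortex, 0.26 without the 2 farthest libraries, on which it thus rests, and 0.34 (permutation adjusted p = 0.124) in hippocampus. The other 4 genes did not pass in SS mice: r in cortex was 0.35 (permutation adjusted p = 0.109) for Bnip3l, 0.30 (0.135) for Gata1, 0.13 for Tal1 and 0.10 for Klf1.

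**Figure D5:**
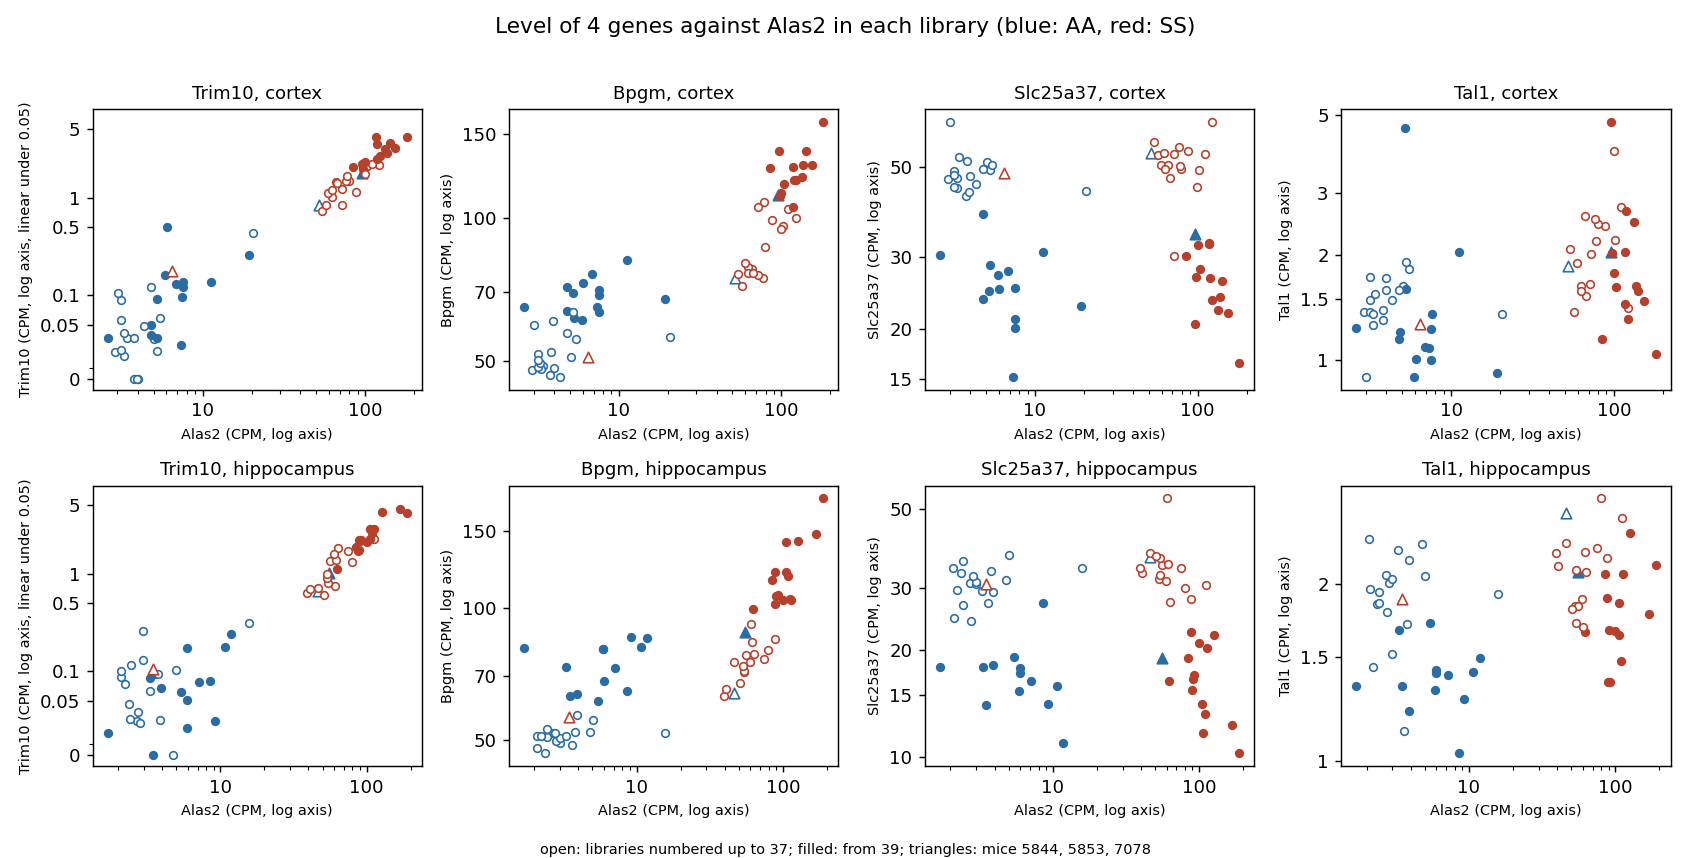
CPM of Trim10, Bpgm, Slc25a37 and Tal1 (y axes, log scale, linear near 0 for Trim10) against CPM of Alas2 (x axis, log scale) in each library of cortex (top) and hippocampus (bottom); blue is AA, red SS, open points libraries numbered up to 37, filled from 39 and triangles mice 5844, 5853 and 7078. Trim10 climbs with Alas2 within SS libraries (r 0.93 in both tissues), and Slc25a37 splits by block.

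Related genes were taken from lists that were chosen with earlier results of these data known. Of 15 red cell membrane genes tested, 4, 3 and 5 rose in SS cortex in unperturbed, RSD and RSD + minocycline mice and 4, 2 and 7 in hippocampus, and none fell. Their median log2 differences were 0.38, 0.62 and 0.15 in cortex, beside the medians of all genes given above. Slc4a1, the band 3 anion exchanger, rose by 3.26 (edgeR adjusted p = 8.79e-04), 5.22 (0.0188) and 3.92 (1.81e-07) on the log2 scale in cortex, and Epb42 (protein 4.2) rose in each cortex comparison too. Of 9 heme synthesis genes, Alas2 rose in each comparison and was the only one called, with 2.90, 4.31 and 3.23 in cortex and 3.33, 3.82 and 3.22 in hippocampus. Of 17 erythroid transcription factors and cofactors other than the members, 2, 0 and 1 rose in cortex and 1, 1 and 3 in hippocampus, and none fell. E2f2, a cell cycle factor of erythroblasts, stood at 1.32 (edgeR adjusted p = 3.54e-04) in unperturbed cortex and 0.94 (adjusted p = 2.02e-04) in hippocampus, and Nfe2, a factor shared with megakaryocytes, at 2.77 (adjusted p = 0.00445) in cortex. None of 16 reticulocyte maturation genes (median log2 difference -0.01 in unperturbed cortex), of 9 genes of mitochondrial iron handling and mitophagy, or of the 7 in cortex and 8 in hippocampus of phosphoglycerate metabolism passed in any of these comparisons. Of the 10 genes of erythropoietin receptor signalling, none rose, and Erfe, the hormone erythroferrone, was called lower in SS + RSD than in AA + RSD hippocampus (edgeR adjusted p = 0.0248). Its mean in unperturbed SS mice was 0.894 CPM in cortex and 0.0329 CPM in hippocampus, and 1 of the 3 AA + RSD hippocampus libraries is that labelled 9674, which had the Prox1 level of cortex.

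Other blood cells were checked by marker lists. Summed megakaryocyte markers ran from 3.22 to 5.23 CPM in AA cortex (median 4.06) and from 3.93 to 5.82 CPM in SS cortex (median 4.88), and none was called in the genotype comparisons. Summed neutrophil markers ran from 0.113 to 1.98 CPM in AA (median 0.385) and from 0.675 to 9.12 CPM in SS cortex (median 1.00); 3 were called higher in SS in cortex and 4 in hippocampus under RSD with minocycline. Of 8 lymphocyte markers, none at 0 in a group, 4 were called higher in SS cortex under RSD with minocycline, among them Cd4 (log2 1.70, edgeR adjusted p = 0.0188), Cd79a (0.89, 0.0197) and Ms4a1 (1.78, 0.0104), and Cd79b alone in hippocampus (1.19, 0.0373). Their summed level ran from 19.3 to 67.03 CPM in AA (median 40.03) and from 21.9 to 75.9 CPM in SS cortex (median 40.01) there. None was called in the unperturbed or RSD genotype comparison. The part of these cells in the values of the 8 genes was not tested.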

How the data were processed

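RNA was sequenced by the study as directional, single-end polyA libraries from cortex and hippocampus. The authors aligned reads to GRCm39 with STAR and counted them per GENCODE gene while mapping; the STAR version, annotation release and strand setting are not given in the sources used here. The deposited values are raw read counts per gene, with 5111 of 55416 genes lacking a symbol. Lines that name no gene were kept out of library sizes: medians of 12.4% of reads unmapped, 4.98% multimapping, 8.25% outside genes and 1.25% ambiguous in cortex, and 13.3%, 4.83%, 7.59% and 1.22% in hippocampus. Groups came from the labels of 134 libraries. The pair of mice labelled 9887 and 9877 had identical counts in each tissue under different groups and was left out, and 3 columns were not used.

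Genes passing filterByExpr (minimum count 10, total 15) were tested with edgeR 4.0.16 (R 4.3.3, TMM, quasi-likelihood, Benjamini-Hochberg over all genes, threshold 0.05), with all groups of a tissue in the genotype model and all libraries of a genotype and tissue in the stress and drug models, after the study's methods. edgeR's test was checked on simulated counts with the same dispersion for every gene and no block effect. That check thus does not cover the blocks or a spread that differs between genes. Alternatives were DESeq2 1.42.0, RLE size factors, no filter, other terms and left-out libraries. Correlations used log2 CPM with a prior count of 2. The tissue pairing comes from the mouse number of the labels: both libraries of a number are from the same animal. Groups within a tissue share no mouse.

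The members and gene lists were chosen with earlier results of these data known. All 8 members are named in every comparison, Alas2 as the reference, and from each list at most 3 called genes with the highest mean CPM in SS control mice. A gene of the red cell membrane list is not reported here by name. The likeness ranking took the 5 genes of highest correlation with the members' mean standardized log2 CPM. Prox1 was added after the data were seen, as a check of the tissue label.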

Additional observations from a re-analysis of the deposited data

Results flagged for a closer look

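Of 48 groups of 4 to 10 libraries examined (a gene in a group of a tissue), 5 had a library standing apart from the rest by Dixon's test at the 95% level; chance flags about 1 in 20 groups. Trim10 in the unperturbed SS mouse 5349 stood at 4.185 CPM in cortex, where the other 7 ranged from 0.726 to 2.23 CPM, and at 4.326 CPM in hippocampus, where the others ranged from 0.721 to 2.28 CPM, so the same mouse was the high one in both tissues. Bpgm in the SS + RSD mouse 9615 stood at 121.1 CPM in hippocampus, above 102 to 107 CPM in the others. Gata1 in the SS + minocycline mouse 9888 stood at 0.6226 CPM in cortex, on 13 reads, while the others had 0 to 0.0138 CPM. Tal1 in the SS + minocycline mouse 9889 stood at 1.042 CPM in cortex, below 1.52 to 1.58 CPM in the others. The causes were not tested.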

How the results depend on the processing

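The counts of members called were recomputed under 249 alternatives, of which 192 stayed within 1.5 times the main count, 31 were lower and 26 higher. Of 1449 single values of members, 1389 stayed on their side of the threshold with no called value turning sign, 27 lost their call, 30 gained it and 3 turned sign with a call. Of the 1389, 172 changed sign without a call on either side. The block of library numbers was added after the data were seen, and the number series are sets of mouse numbers in the labels whose meaning is not given.

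For SS against AA in cortex the 2 calls became 1 with no filter, without the library labelled 9631 or with only the groups compared in the model, and 0 in number series B or from 39. In hippocampus 1 call became 2 with DESeq2, with the block, without the 3 libraries or up to 37, 3 with the block and without the 3 libraries, and 0 in series A, series B or from 39. For SS + RSD against AA + RSD in cortex 1 call became 2 with the number series or block as a term, with DESeq2 or with only the groups compared. The count became 0 with no filter or without 9674. Leaving out each AA + RSD replicate, 9674 among them, gave 0 to 0. All libraries of this pair are numbered from 39, so the fit from 39 is the same as that with only the groups compared. In hippocampus 1 became 2 with the block or with only the groups compared, again the same fit as from 39, and 0 without 9674. Leaving out each replicate gave 0 to 1 there. For the RSD + minocycline genotype pair in hippocampus 2 became 1 with DESeq2, only the groups compared, series B or from 39. Apart from the fits without 9674, the share of all genes called in these genotype alternatives is not given here. A rise or fall of these counts thus stands without that background.

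SS + RSD against SS in cortex went from 0 to 1 with RLE (862 of 19906 genes called) or DESeq2 (2097 of 19861) and to 2 with only the groups compared (3348 of 17394), and in hippocampus from 0 to 1 with only the groups compared (1462 of 18212). SS + RSD + minocycline against SS + RSD in cortex went from 1 to 2 with DESeq2 and to 0 with no filter, number series, block, without the 3 libraries, both of these, or from 39; Bnip3l turned to 0.11 (edgeR adjusted p = 1) with the number series. AA + RSD + minocycline against AA + RSD went from 0 to 1 in cortex with RLE or DESeq2 and in hippocampus with the block, with or without the 3 libraries, where Bpgm turned to 0.31 (edgeR adjusted p = 0.0391) and 0.29 (adjusted p = 0.0396) and 2115 of 21563 and 2028 of 21600 genes were called. SS + minocycline against SS went from 0 to 3 (Bpgm, Slc25a37 and Trim10) in series B of both tissues, where the SS + minocycline mice were numbered from 39 and the SS mice up to 37, and where 7205 of 17898 cortex and 6072 of 20191 hippocampus genes were called. Every other left-out replicate gave 0 to 0.

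With the mouse as replicate block, the pairing of tissues moved the AA tissue comparison from 1 to 3 calls (9301 of 17556 genes). Correlations with Alas2 in cortex went from 4 members to 0 in series A, to 2 in either block, and without the 3 libraries to 2 up to 37 and 1 from 39; in hippocampus from 3 to 6 without the 3 libraries and to 1 in series A. The causes were not tested. Depth limits Gata1, Trim58, Klf1 and, in AA mice, Trim10, whose values rest on few reads per library.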

Other observations

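The same SS mice were compared between tissues, a relation chosen after the data were seen, with permutation p adjusted over 18 relations. Over 31 SS mice, Pearson's r between cortex and hippocampus was 0.95 for Trim10, 0.87 for Bpgm, 0.83 for Slc25a37 and 0.82 for Bnip3l (permutation adjusted p = 2.25e-05 for each), with Spearman's rho 0.94, 0.89, 0.75 and 0.83 and r without the 2 farthest mice 0.92, 0.85, 0.81 and 0.77. It was 0.06 for Gata1, -0.08 for Trim58, -0.10 for Tal1 and -0.16 for Klf1. Within the blocks of library numbers and without the library labelled 7078, Trim10 kept 0.79 (permutation adjusted p = 0.00204) up to 37 and 0.87 (3.6e-04) from 39. Bnip3l passed up to 37, at 0.67 (permutation adjusted p = 0.02245), but not from 39, at 0.43. Bpgm gave 0.45 up to 37 and 0.52 from 39, and neither value passed the threshold. Slc25a37 gave -0.00 and 0.57 (permutation adjusted p = 0.0970) and did not pass in either block.

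The genes whose log2 CPM was most like the mean of the members over SS libraries were E2f2 (r 0.78), Slc4a1 (0.78), Pros1 (0.77), Fam46c (0.77) and Ube2l6 (0.76) among 14672 genes over 32 cortex libraries. In hippocampus they were E2f2 (0.84), Fam46c (0.78), Ube2l6 (0.77), Tspo2 (0.77) and Tnfrsf1a (0.75) among 14679 genes over 31 libraries. These are descriptions over libraries that share depth and block. Without the library labelled 7078 the cortex list held none of the same 5 genes, so it rests on that library, and the hippocampus list kept 4 of 5.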
